A study of Mus musculus with 3 samples.

Results

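C1ra, C1rb, C1s1 and C1s2 are the mouse paralogs of the complement proteases C1r and C1s. They were taken by gene symbol as 4 of the 31053 genes counted in single cells of the mouse iridocorneal angle and limbus, and they were selected on their UMI counts by label and library, in which C1rb and C1s2 are nearly missing from the Angpt1ΔNC library. Because that choice used the contrast of Angpt1ΔNC with the controls, their values in that contrast are a description and carry no test. The question asked of them was whether the loss of one paralog came with a change of its partner.

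The data are 3 droplet libraries of 6-week-old mice of a mixed strain, which had been bred onto albino ICR stock for 2 generations. The 2 control libraries (control replicates 1 and 2) carried Angpt1 flox/flox, and the single Angpt1ΔNC library carried Angpt1 flox/flox;Wnt1Cre+, so that every group held the floxed Angpt1 allele and only Angpt1ΔNC the Cre recombinase, which is driven by Wnt1 and acts in the neural crest. Each library was a pool of eyes from 2 to 3 mice, and with 1 Angpt1ΔNC library, genotype, pool and mixed background cannot be told apart. No spread between Angpt1ΔNC pools was measured, and all intervals given here are 95% intervals for counting error only.

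The kept cells numbered 9076, 10160 and 6772 in control replicate 1, control replicate 2 and Angpt1ΔNC, with 66484181 to 80346829 UMIs (distinct captured RNA molecules) per library and a median of 6329.5 to 7444 UMIs per cell. Angpt1 stood at 37.8 and 39.3 CPM (UMI counts of the gene for every 1000000 UMIs of the same cells) in the controls and at 0.391 in Angpt1ΔNC. The labels give male and female animals in each pool, but Xist stood at 0.0390 and 0.0249 CPM in the controls against 652 in Angpt1ΔNC, and 0 and 1 control cells were typed as female (Xist and no Y-linked UMI) against 3861 in Angpt1ΔNC. Values in male-typed cells are therefore given beside the main ones. Between 27 and 39 kept barcodes per library also occurred in another library. In each library all 6 stromal marker genes (Dcn, Lum, Col1a1, Col1a2, Pdgfra and Pdgfrb) were higher in the cells labelled TM1 to TM11 than in the other cells, and the same held for all 5 mural markers in clusters 19 to 21.

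C1r and C1s are serine proteases that join C1q to form C1, the complex that starts the classical complement pathway. When C1q binds its target, C1r activates C1s, and C1s then cleaves C4 and C2. C1 inhibitor, encoded by Serping1, inactivates both proteases. In the mouse both genes are duplicated, and C1rb and C1s2 are best known from the male reproductive tract, whereas C1ra and C1s1 are the forms of the liver.

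The 4 genes stand side by side on mouse chromosome 6 (GRCm38), within the order C1rl, C1ra, C1s1, C1rb, C1s2. C1ra lies at chr6:124512405-124523443 and C1rb at chr6:124570294-124581171, both on the plus strand. C1s1 lies at chr6:124530345-124542359 and C1s2 at chr6:124624625-124636085, both on the minus strand. The last 150 coding bases of each, including the stop codon, show how alike the paralogs are toward the 3′ end of the transcript. They are given 5′ to 3′ along the gene, as read from 1 GENCODE M21 transcript per gene. Capitals mark the bases that differ from the partner. Each stretch lies in a single exon, at chr6:124522831-124522980 (C1ra), chr6:124580877-124581026 (C1rb), chr6:124530944-124531093 (C1s1) and chr6:124625166-124625315 (C1s2).
C1ra: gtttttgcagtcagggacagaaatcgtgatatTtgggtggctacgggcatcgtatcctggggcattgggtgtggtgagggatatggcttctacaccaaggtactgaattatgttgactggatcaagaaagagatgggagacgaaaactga
C1rb: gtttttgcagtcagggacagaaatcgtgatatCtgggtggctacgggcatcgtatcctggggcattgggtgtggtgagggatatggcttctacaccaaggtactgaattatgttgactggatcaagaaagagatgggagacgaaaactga
C1s1: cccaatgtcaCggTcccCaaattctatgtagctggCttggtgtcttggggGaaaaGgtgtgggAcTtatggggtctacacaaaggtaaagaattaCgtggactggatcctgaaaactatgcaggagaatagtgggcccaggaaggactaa
C1s2: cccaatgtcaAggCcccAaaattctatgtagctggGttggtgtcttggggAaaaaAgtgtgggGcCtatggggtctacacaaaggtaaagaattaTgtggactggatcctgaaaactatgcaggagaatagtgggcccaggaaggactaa

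C1ra and C1rb differed at 1 of these 150 bases and C1s1 and C1s2 at 9. Over the whole coding sequence C1ra and C1rb were 98.0% identical and C1s1 and C1s2 95.6%, while C1ra and C1s1 were 61.7% identical. Of all windows of 100 bases in the C1rb transcript, 42.7% occurred without a mismatch in C1ra, and 34.5% of the C1ra windows occurred in C1rb. The same shares were 7.90% for C1s1 in C1s2 and 8.78% for C1s2 in C1s1. Within the last 600 bases of the transcripts the shares were 23.2% and 29.1% for C1ra and C1rb and 0.200% for each of C1s1 and C1s2. After the stop codon the annotated C1ra transcript runs for 463 bases and that of C1rb for 145. How reads that fit both paralogs were counted is not given in the sources used here, and the part of shared sequence in the values of the pairs was not tested. C1s1 also overlaps the antisense gene Gm16567, and the strand setting of the counting is not given either.

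In the 300 bases around the RefSeq start sites (GRCm38.p6), C1ra and C1rb each held the motif TTCNNNGAA, which reads the same on both strands, at position 283 and at position 132 of the window. The windows of C1ra and C1rb aligned over 148 bases with 93.9% identity, and the match lies in this shared stretch of both. The motif occurred in 8.47% of 27025 promoters. C1s1 and C1s2 held no match to it, and of the 4 windows only that of C1s2 held CCAAT on either strand, a motif found in 37.9% of promoters. TATAAA (14.2% of promoters) matched in none of the 4 windows, both strands searched.

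In the controls all 4 genes were highest in TM11, but not every TM label stood above the other labels. Levels are given in CPM as above. UMIs count molecules and were not divided by transcript length, and which end of the transcript was read is not given in the sources used here, so levels are compared between libraries or labels for 1 gene at a time. Among the 34 labels with at least 20 cells in both controls, C1ra was highest in TM11, at 202 and 152 CPM in control replicates 1 and 2, and next highest in TM3, at 128 and 113. C1rb was also highest in TM11, at 210 and 267, as were C1s1, at 300.4 and 203, and C1s2, at 172 and 107. Most neighbours in this order had overlapping control values. This held for 24 of 33 neighbouring pairs of labels for C1ra, 25 for C1rb, 30 for C1s1 and 27 for C1s2.

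Outside TM1 to TM11 the genes were mainly found in clusters 13, 17 and 18 and in the mural clusters 19 to 21. By control mean, cluster 20 came next after TM11 and TM7 for C1s1 and C1s2. It held C1s1 at 206 and 102 CPM in control replicates 1 and 2, and C1s2 at 82.5 and 48.8. C1ra stood at 41.3 and 41.5 CPM in clusters 13, 17 and 18 together and at 34.4 and 28.6 in the mural clusters. In endothelium (labels SC, LEC and EC2 to EC4) it stood at 0.782 and 1.63, and in clusters 2 to 5, which hold the surface epithelium, at 0.719 and 0.478. C1s1 stood at 1.82 and 0.574 CPM in those epithelial clusters and at 0.706 and 0.644 in the leukocyte clusters 22 to 25. All 4 genes were thus low in the epithelium, where free RNA of other cells would also be counted. Cells with at least 2000 UMIs were thinned to 2000, which left out 82 and 53 control TM1 to TM11 cells. Of the thinned cells, 13.6% and 11.5% in TM1 to TM11 held a C1ra UMI, against 0.306% and 0.397% in the limbal and corneal epithelium (clusters 4 and 5). The unthinned shares, over all kept cells of these labels, were 33.9% and 29.6% in TM1 to TM11 (median depths 5913 and 6377 UMIs) and 1.42% and 0.889% in the epithelium (17717 and 15169 UMIs). In T cells (cluster 22), the other type taken to lack these genes, 0 and 3 C1ra UMIs were counted in the controls and 6 in Angpt1ΔNC. For C1s1 the counts there were 1 and 0 in the controls and 9 in Angpt1ΔNC. Across clusters 22 to 25, C1s1 stood at 3.67 CPM in Angpt1ΔNC. In clusters 4 and 5 it stood at 1.88 and 0.618 in the controls and at 0.522 in Angpt1ΔNC, below both. The part of free RNA in these values was not tested.

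The genes with the most similar pattern over these 34 labels were largely the other members. Likeness was Pearson's r of log2(CPM + 10), among 11202 genes, ranked by the lower r of the controls, and the labels share their libraries. C1rb was the gene most like C1ra and C1ra the gene most like C1rb, with r of 0.990 and 0.982 in the controls. C1s1 and C1s2 were likewise nearest to each other, with r of 0.989 in control replicate 1 and 0.988 in control replicate 2. The next genes were C1s1 and C1s2 for C1ra, Serping1 (lower r 0.958) and P3h3 (0.943) for C1rb, C1ra (0.958) and Serping1 (0.944) for C1s1, and C1ra (0.953) and C1rb (0.937) for C1s2. P3h3, a collagen prolyl hydroxylase gene, lies on the same chromosome within 500000 bases of the members.

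**Figure D1:**
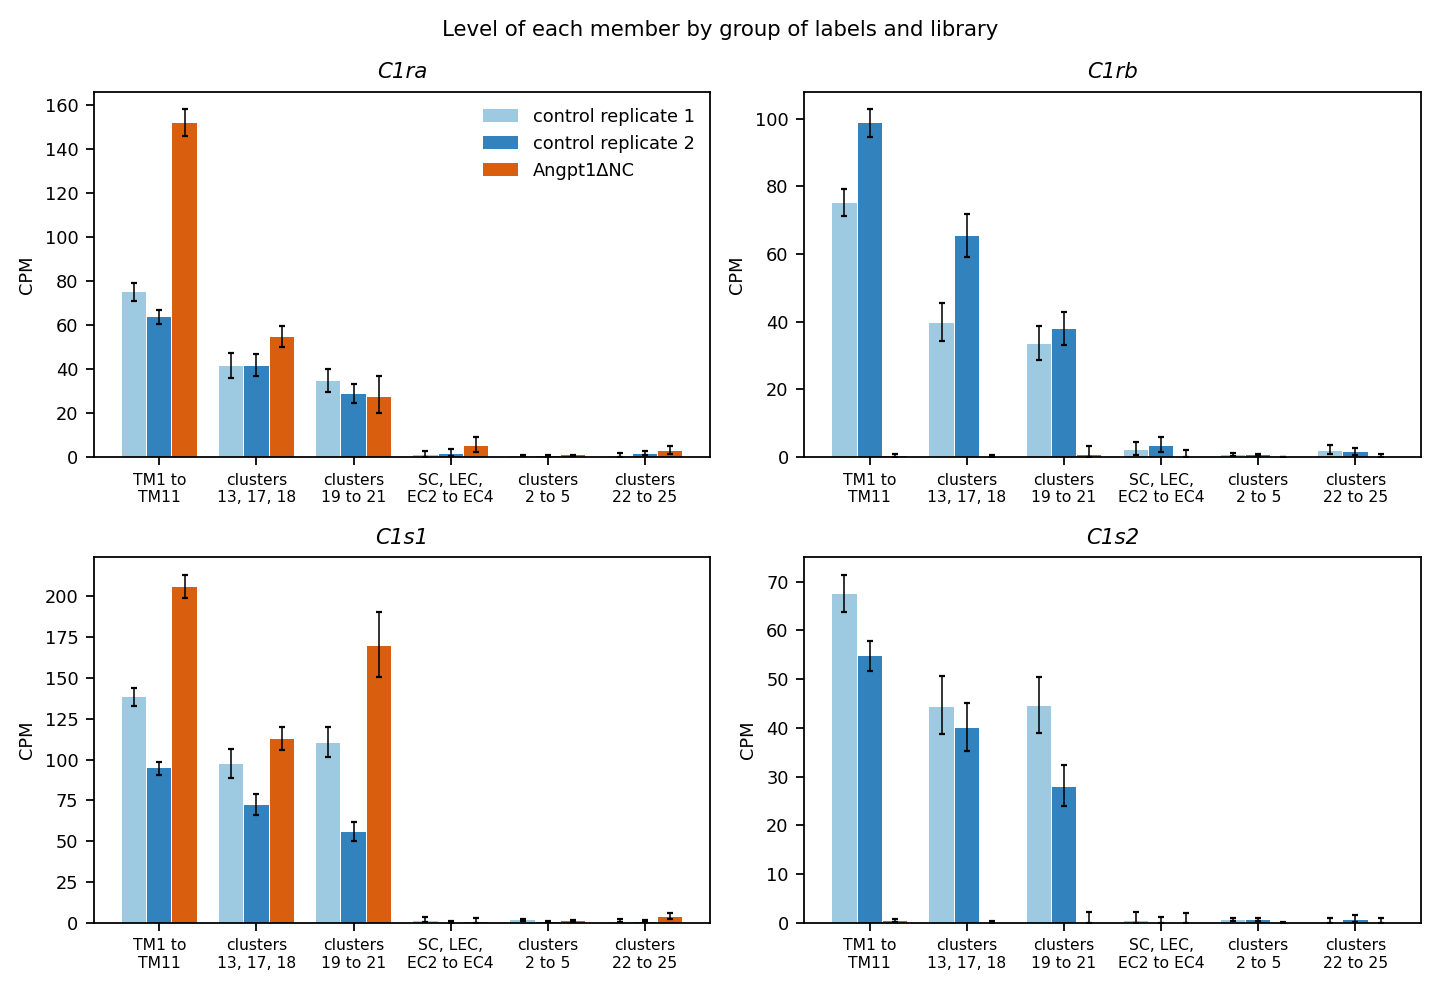
Levels of the 4 genes in CPM (y axes, from 0), by group of deposited labels (x axes) and library (colours), with 95% Poisson intervals for counting error. In TM1 to TM11, C1rb and C1s2 stand at 0.385 in Angpt1ΔNC and at 54.7 to 98.6 in the controls, while C1ra and C1s1 stand above both controls.

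C1rb and C1s2 were almost missing from Angpt1ΔNC, and C1ra and C1s1 stood above both controls. The libraries mix the TM labels differently. TM7 held 667, 739 and 174 cells in control replicate 1, control replicate 2 and Angpt1ΔNC, TM8 held 591, 612 and 155, and TM9 held 204, 298 and 327, so values by label are given after the pooled ones. In TM1 to TM11 (2803, 3324 and 1946 cells) C1rb stood at 75.2 and 98.6 CPM in control replicates 1 and 2 and at 0.385 CPM in Angpt1ΔNC, where 6 UMIs were counted against 1374 and 2254. C1s2 stood at 67.6, 54.7 and 0.385, also with 6 UMIs in Angpt1ΔNC, against 1235 and 1251. The Angpt1ΔNC level lay 226-fold below the control mean for C1rb (counting interval 104 to 615) and 159-fold below it for C1s2 (73.0 to 433). Both genes were below both controls by at least 2-fold, as were 6.74% of the 13942 genes tested in these cells. Only 7 of the 13942 genes (0.0502%) were lower by at least 64-fold. They included C1rb, C1s2, Angpt1, Tcf21, Gm10260 and BC023719, the last 3 named after their values were seen.

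The partners stood higher in Angpt1ΔNC. C1ra stood at 74.8 and 63.5 CPM in the controls and at 152 in Angpt1ΔNC, 2.19-fold the control mean (counting interval 2.11 to 2.28). C1s1 stood at 138 and 94.6 in the controls and at 206 in Angpt1ΔNC, 1.77-fold the control mean (1.71 to 1.83). Neither range of controls reached the Angpt1ΔNC value, but the controls themselves differed by a ratio of 1.46 for C1s1 and of 1.18 for C1ra. Of all 13942 genes tested, 39.0% stood above both controls, 10.6% did so by at least 1.5-fold and 4.00% by at least 2-fold.

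Taken as pairs, the pooled levels in TM1 to TM11 moved less than those of the single genes. C1ra and C1rb together stood at 150.0 and 162 CPM in the controls and at 152 in Angpt1ΔNC, between the controls, with a fold of 0.975 (counting interval 0.936 to 1.01). C1s1 and C1s2 together stood at 206.0 and 149 in the controls and at 206.5 in Angpt1ΔNC, a fold of 1.16 (1.12 to 1.20), which lay above control replicate 1 by less than 1 CPM. The share of cells with a UMI gave the same picture at 2000 UMIs per cell. Only TM1 to TM11 cells with at least 2000 UMIs were used. A C1ra UMI was found in 13.6%, 11.5% and 25.3% of them in control replicate 1, control replicate 2 and Angpt1ΔNC, and a UMI of either C1ra or C1rb in 23.6%, 25.9% and 25.3%. In male-typed TM1 to TM11 cells the sum of C1ra and C1rb stood at 151 and 162 CPM in the controls and 167 in Angpt1ΔNC. That of C1s1 and C1s2 stood at 208 and 146 in the controls and 233 in Angpt1ΔNC. Both sums were thus above both controls there. In female-typed Angpt1ΔNC cells, a type nearly absent from the controls, the sums stood at 143 and 188.

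C1rb and C1s2 were low in each label with enough counts, a direction that the choice of the genes had fixed, whereas the partners were not higher in each of them. Labels were compared where each library had at least 20 cells and 20 UMIs of the pair. In Angpt1ΔNC nearly all UMIs of a pair were those of C1ra or C1s1, so labels with few of these UMIs there were left out. All labels also share the single Angpt1ΔNC library. C1rb was below both controls in all 15 labels compared, with 0 UMIs in Angpt1ΔNC in 8 of them, and C1s2 in all 16, with 0 UMIs in 12. C1ra was above both controls in 13 of 15 labels, between them in TM9 (56.6 and 79.9 against 74.0) and below both in cluster 20. C1s1 was above both controls in 15 of 16 labels and between them in TM6 (149.9 and 79.5 against 94.2). The fold of C1ra ran from 0.590 in cluster 20 to 3.40 in cluster 13, with a median of 2.02 over the 15 labels, and that of C1s1 from 0.822 in TM6 to 2.50 in TM5, with a median of 1.92 over the 16.

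The summed level of the pairs differed from label to label. C1ra and C1rb together were above both controls in 4 labels, between them in 3 and below both in 8. Their folds ran from 0.272 to 1.28, with a median of 0.838. In TM4 the sum stood at 172 and 154 in the controls and at 199 in Angpt1ΔNC, whereas in TM9 it stood at 109, 171 and 74.5. C1s1 and C1s2 together were above both controls in 8 labels, between them in 4 and below both in 4. Their folds ran from 0.527 to 1.73, with a median of 1.24. In TM1 that sum stood at 211 and 155 in the controls and at 289 in Angpt1ΔNC, whereas in TM6 it stood at 229, 128 and 94.2. Over all kept cells the sum of C1ra and C1rb stood at 46.8 and 61.0 in the controls and at 44.8 in Angpt1ΔNC. This was below both controls, with a fold of 0.831. The sum of C1s1 and C1s2 stood at 69.8, 58.9 and 68.9, a fold of 1.07. The stacked bars of the pairs show the sums by label.

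**Figure D2:**
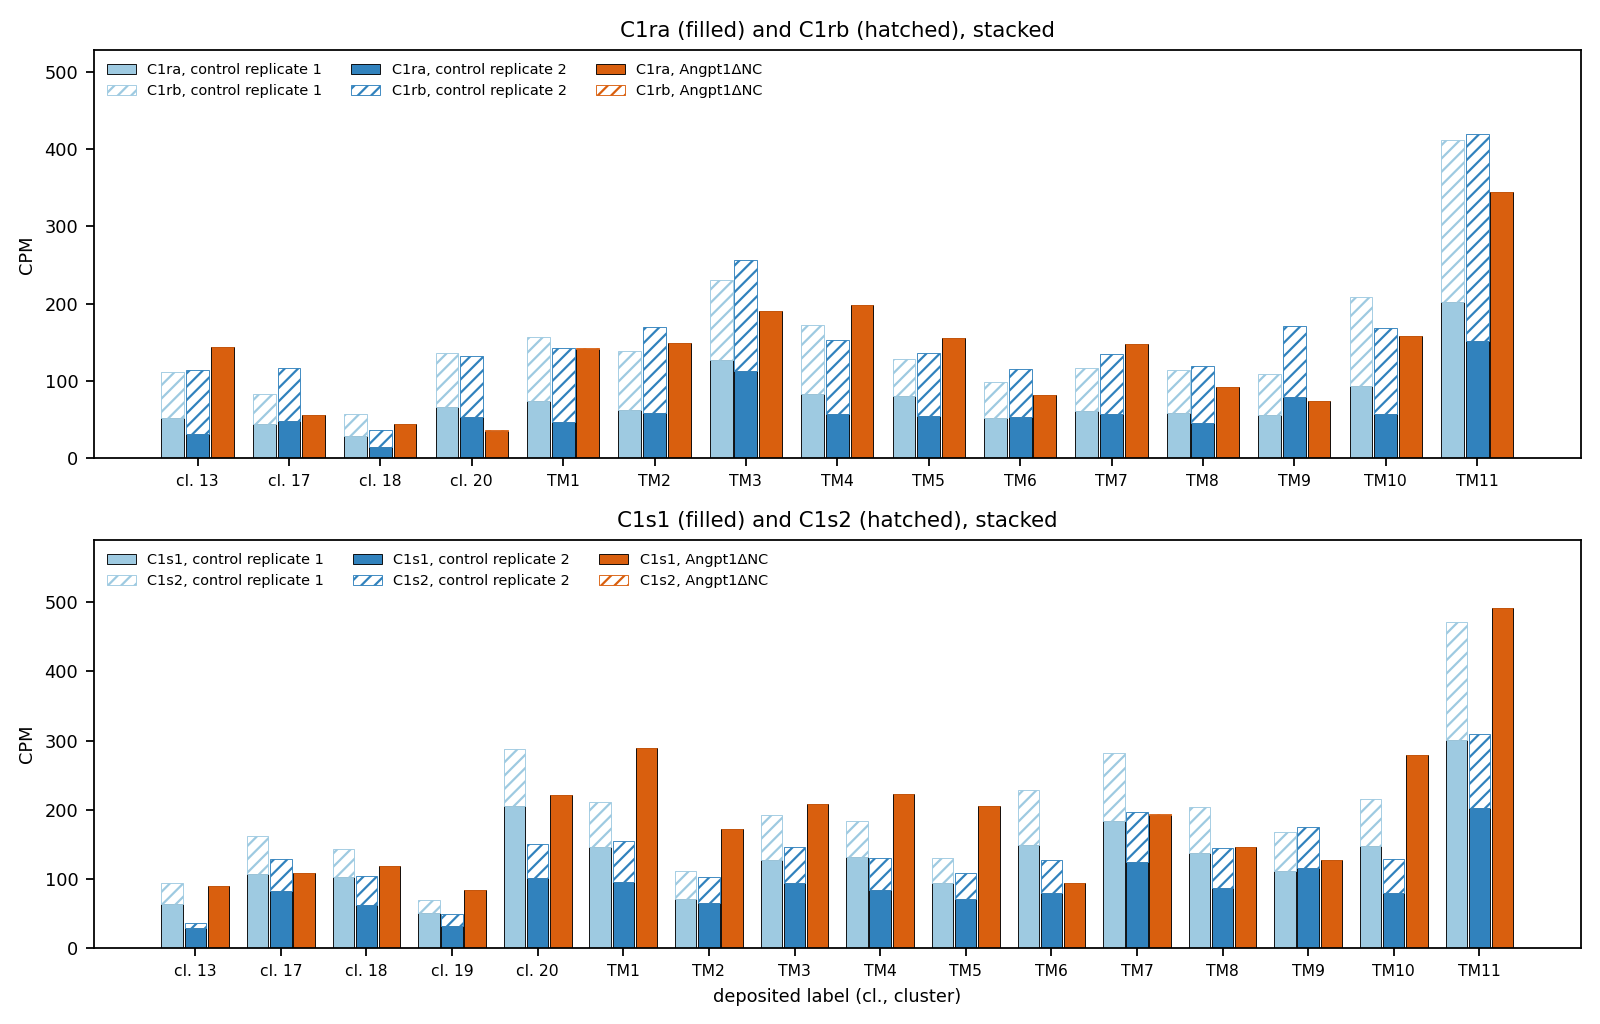
Stacked levels in CPM (y axes, from 0) of C1ra (filled) and C1rb (hatched), above, and of C1s1 (filled) and C1s2 (hatched), below, for each label with at least 20 cells and 20 UMIs of the pair in every library (x axes) and each library (colours). The hatched part is nearly missing in Angpt1ΔNC, and the whole bar of the C1r pair is below both controls in 8 of 15 labels.

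Clusters 13, 17 and 18 were pooled in the same way. In clusters 13, 17 and 18, C1ra stood at 41.3 and 41.5 CPM in the controls and at 54.5 in Angpt1ΔNC, 1.32-fold the control mean, while C1rb stood at 39.6, 65.2 and 0.112 (1 UMI). The sum of C1ra and C1rb there stood at 80.9 and 107 in the controls and at 54.6 in Angpt1ΔNC, below both, with a fold of 0.583 (counting interval 0.532 to 0.637). The 3 clusters were not alike, and cluster 18 held 301 and 165 cells in the controls against 534 in Angpt1ΔNC. The sum was below both controls in cluster 17 (83.3 and 117 against 56.5), between them in cluster 18 (58.0 and 37.3 against 44.4) and above both in cluster 13 (111 and 115 against 144). In these clusters the sum of C1s1 and C1s2 stood at 141, 112 and 113, with a fold of 0.891.

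In the mural clusters 19 to 21 pooled, C1ra was near the lower control. It stood at 34.4 and 28.6 CPM in the controls and at 27.5 in Angpt1ΔNC, a fold of 0.872 whose counting interval ran from 0.638 to 1.16. The sum of C1ra and C1rb stood at 67.9, 66.3 and 28.1, a fold of 0.418 (0.307 to 0.556). C1s1 in the same cells stood at 110 and 55.9 in the controls and at 170 in Angpt1ΔNC, 2.04-fold the control mean, and C1s2 at 44.4, 27.9 and 0 (0 UMIs). C1ra in cluster 20 stood at 66.9 and 53.5 in the controls and at 35.5 in Angpt1ΔNC, where it rested on 34 UMIs in 222 cells. In clusters 19 and 21, with 7 and 5 C1ra UMIs in Angpt1ΔNC, it was above both controls, with folds of 1.35 and 1.09. Cluster 19 made up 387 and 499 control cells and 54 Angpt1ΔNC cells. The difference between the fold of C1ra in TM1 to TM11 and in the mural clusters was not tested.

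The share of C1rb or C1s2 in its pair was also compared, as a share of UMIs without correction for transcript length. Over all kept cells C1rb made up 50.2% and 60.4% of the C1ra and C1rb UMIs in control replicates 1 and 2 and 0.269% of those in Angpt1ΔNC. Over the 15 labels the share ran from 37.3% (TM5) to 55.3% (TM10) in control replicate 1 and from 53.3% (TM6) to 72.0% (cluster 13) in control replicate 2, and it did not exceed 2.86% (cluster 20) in Angpt1ΔNC. C1s2 made up 31.9% and 36.1% of its pair in the controls and 0.131% in Angpt1ΔNC. Over the 16 labels its share ran from 27.0% to 36.4% in control replicate 1 and from 21.1% to 40.5% in control replicate 2, and reached at most 0.803% (TM7) in Angpt1ΔNC.

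**Figure D3:**
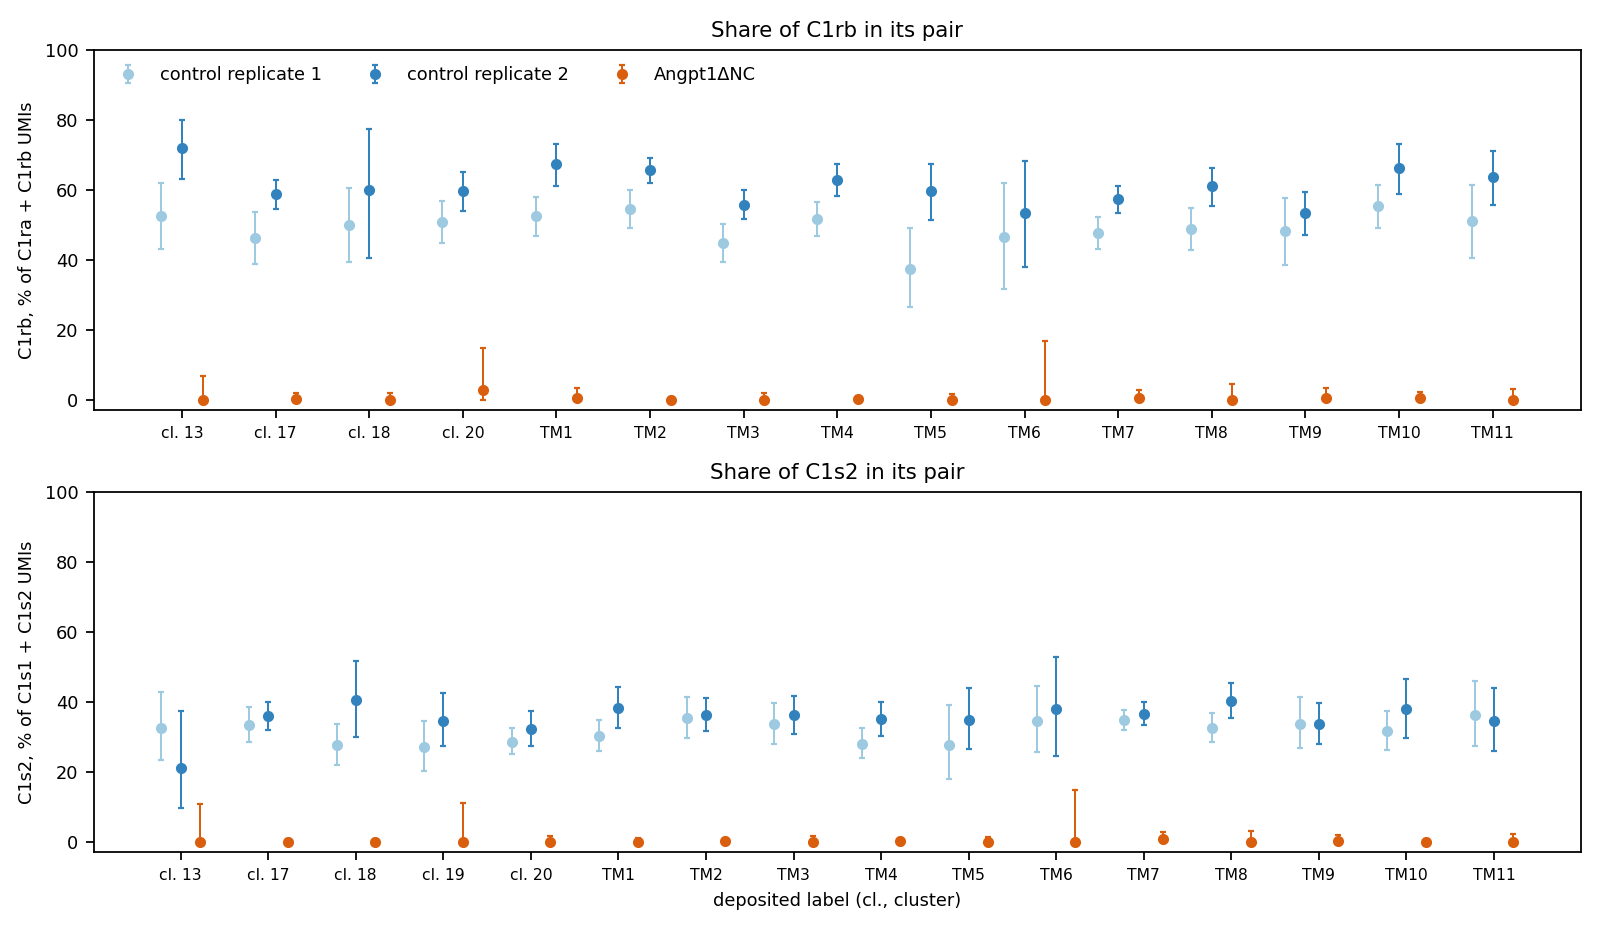
Share of C1rb in the C1ra and C1rb UMIs (above) and of C1s2 in the C1s1 and C1s2 UMIs (below), in percent (y axes), for each label (x axes) and library (colours), with exact 95% binomial intervals for counting error. The control shares stay between 37.3% and 72.0% for C1rb and between 21.1% and 40.5% for C1s2, and the Angpt1ΔNC shares do not exceed 2.86%.

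The controls also differed from each other. C1rb was higher in control replicate 2 than in control replicate 1 in 13 of 15 labels, and C1s1 in only 1 of 16. C1ra was higher in control replicate 2 in 3 of 15 labels and C1s2 in 3 of 16. Over all kept cells C1rb stood at 23.5 and 36.9 CPM in the controls, and C1s1 at 47.6 and 37.6. C1ra stood at 23.3 and 24.1 and C1s2 at 22.2 and 21.3.

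Low C1rb and C1s2 and high C1ra and C1s1 were seen in male-typed and in female-typed cells of Angpt1ΔNC. In the male-typed TM1 to TM11 cells of Angpt1ΔNC (595 cells) C1ra stood at 167 CPM, C1rb at 0.781, C1s1 at 232 and C1s2 at 0.195. In the female-typed ones (1126 cells) C1ra stood at 142, C1rb at 0.225, C1s1 at 187 and C1s2 at 0.563. The male-typed control cells stood at 75.6 and 63.0 for C1ra, 74.9 and 98.9 for C1rb, 139 and 92.3 for C1s1, and 69.6 and 53.6 for C1s2. Male-typed and female-typed cells cannot come from the same mouse, so the low levels of C1rb and C1s2 were found in cells of at least 2 mice of the pool.

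The few UMIs of the lost genes in Angpt1ΔNC were scattered. The 8 C1rb UMIs lay in 8 cells of 7 labels, 7 of which also held a C1ra UMI, and none of their barcodes occurred among the called control cells. The 6 C1s2 UMIs lay in 6 cells, all labelled TM and all with a C1s1 UMI, and 1 of these barcodes also occurred in a control library. No cell held both a C1rb and a C1s2 UMI.

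Most control cells with several UMIs of a pair held UMIs of both paralogs. Among TM1 to TM11 cells with at least 4 UMIs of the pair, 163 of 168 cells in control replicate 1 (97.0%) and 216 of 252 in control replicate 2 (85.7%) held both C1ra and C1rb, against 0 of 157 in Angpt1ΔNC. The low counts in Angpt1ΔNC follow from the choice of the genes, and the part of free RNA and of reads that fit both paralogs in the control counts was not tested. Both C1s1 and C1s2 were held by 258 of 278 cells (92.8%) and 191 of 210 cells (91.0%) of the controls and by 1 of 289 in Angpt1ΔNC. The pairs also occurred together. In cells with at least 1 UMI of the C1r pair, 66.6% and 55.4% of the control cells and 74.6% of the Angpt1ΔNC cells held a UMI of the C1s pair, against 51.6%, 39.2% and 49.7% of the cells without one. Median depth differed between these cells, at 6976 and 7232 UMIs in the controls and 8397 in Angpt1ΔNC with a C1r UMI and 4933, 5424 and 6141 without, and its part in the difference was not tested.

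The genes around the members were not as low. Within 500000 bases of the span of the members, 29 other genes had at least 100 UMIs in the kept cells, and 27 of them were found in the TM1 to TM11 cells of both controls. In these cells 8 of the 27 stood above both controls in Angpt1ΔNC, 5 between and 14 below both. Of all 13942 genes tested in these cells, 39.0% stood above both controls, and the share below both at any fold is not given. The folds of the 27 neighbours ran from 0.229 to 1.49 with a median of 0.904, and 21 of 27 were within 1.5-fold. C1rl, the C1r-like gene next to C1ra, stood at 3.88 and 4.90 CPM in the controls and at 6.55 in Angpt1ΔNC. Lpcat3, a phospholipid acyltransferase gene on the other side of C1s2, stood at 22.3, 20.8 and 26.9. Of the 2 neighbours that were lower by at least 2-fold, Pianp stood at 49.6 and 39.5 in the controls and 10.2 in Angpt1ΔNC, and Gnb3 was below 1 CPM in these cells of every library.

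**Figure D4:**
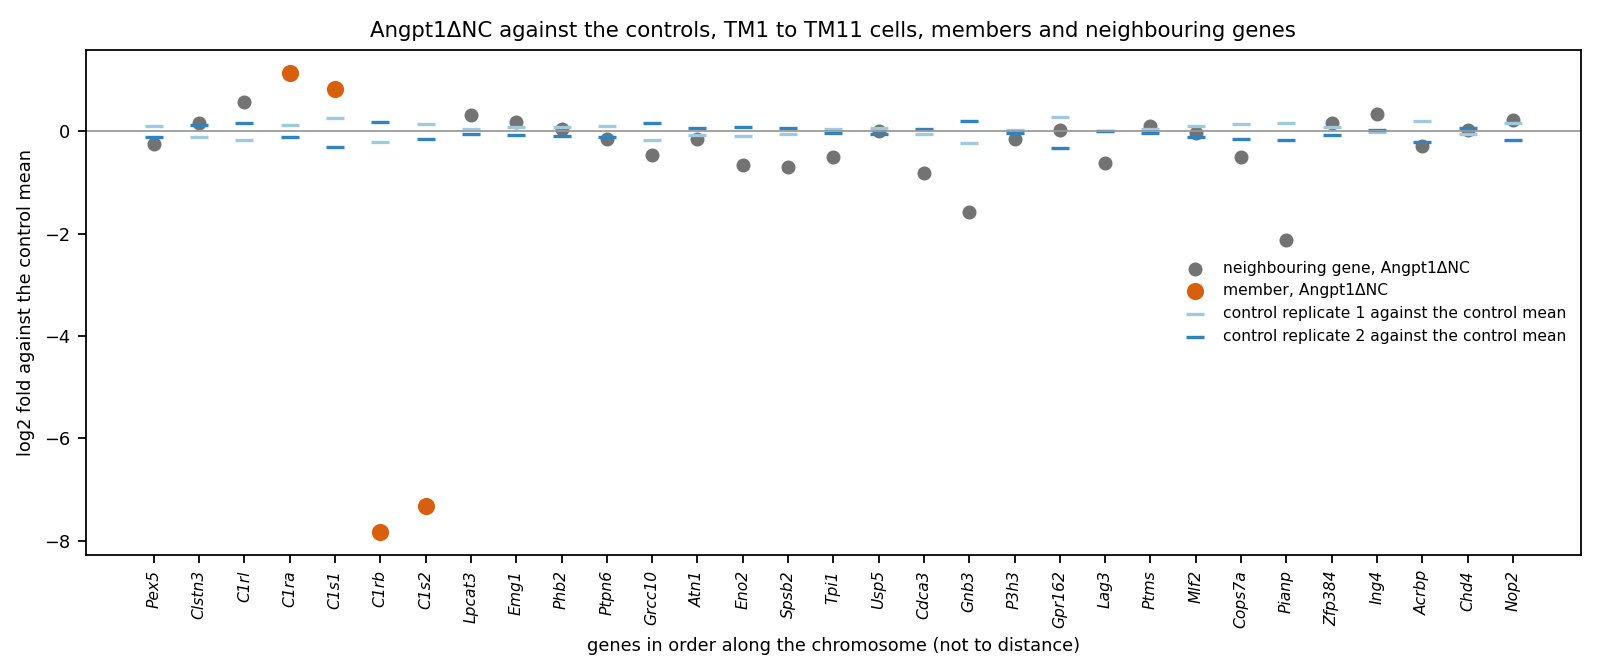
Log2 fold of Angpt1ΔNC over the control mean in TM1 to TM11 cells (y axis) for the 4 members (orange) and 27 neighbouring genes (grey) in chromosome order (x axis), with each control against the control mean as dashes. C1rb and C1s2 lie at -7.82 and -7.31, and the neighbours lie between 0.229-fold and 1.49-fold.

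Of the wider complement list 4 genes passed the test, all of them lower in Angpt1ΔNC. Of the 42 other listed genes, 24 passed the filter on low counts in TM1 to TM11 and were tested with edgeR's quasi-likelihood test on the summed UMIs of each library (2 controls against 1, 1 residual degree of freedom, the lone library being taken to vary like the controls). None of the 24 rose and 4 fell at an adjusted p under 0.05, where 3.46% of all genes tested were called higher and 5.52% lower. With DESeq2 the same 4 genes were lower in Angpt1ΔNC. The median log2 fold of the 24 was 0.03, beside -0.01 for all 13942 genes. Those that fell included Colec12, C7 and Vtn, which were named after their values were seen. With equal weight for each TM label, an alternative without a test that was chosen after seeing the data, their log2 folds were -0.68, -6.09 and -4.03.

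Colec12, a scavenger receptor gene of the collectin family, stood at 272 and 265 CPM in the controls and at 162 in Angpt1ΔNC (log2 fold -0.72, edgeR adjusted p = 0.0211). C7, a component of the membrane attack complex, stood at 12.3, 10.0 and 0.321 (log2 fold -5.08, edgeR adjusted p = 0.000153). Vtn, which encodes vitronectin, stood at 8.97, 3.94 and 0.385 (log2 fold -4.01, edgeR adjusted p = 0.00869).

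The partners of C1r and C1s in the classical pathway did not pass the test. Serping1, whose product inhibits both proteases, stood at 791 and 769 CPM in the controls and at 926 in Angpt1ΔNC (log2 fold 0.25, edgeR adjusted p = 0.300). C4b, a substrate of C1s, stood at 42.8 and 96.0 CPM in control replicates 1 and 2 and at 168 CPM in Angpt1ΔNC (log2 fold 1.26, edgeR adjusted p = 0.0687), and its controls differed more from each other than those of any member. C2, the other substrate, stood at 30.4, 21.05 and 16.8 (log2 fold -0.60, edgeR adjusted p = 0.112). The C1q genes C1qa, C1qb and C1qc had log2 folds of 0.41, 0.52 and 0.29 and edgeR adjusted p of 0.257, 0.200 and 0.566. C1qa is also one of the leukocyte markers, and the part of leukocyte RNA in the level of TM1 to TM11 was not tested. C3 (log2 fold -0.36), Masp1 (0.10), which encodes a lectin pathway protease, and C1rl (0.57) did not pass either, with edgeR adjusted p of 0.309, 0.774 and 0.214. With equal weight for each TM label the log2 fold of Masp1 was -0.45.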

How the data were processed

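The authors made the deposited matrices of raw UMI counts with Cell Ranger and the mm10 genome, and analysed them with Seurat 3.1.3. The submitters' processing notes give Cell Ranger 2.1.1, while the matrix headers name another release. The authors removed cells with under 200 genes, under 1000 UMIs or over 10% mitochondrial reads, and removed doublets with scDblFinder. Their deposited label of each kept cell was used as it stands. The deposited tables of filtered cells were used only for these labels, and all counts came from the matrices.

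The members and the gene lists were chosen with earlier results of these data known. Levels are summed counts of a gene over summed counts of all genes in the same cells, times 1000000 (CPM), with exact 95% Poisson intervals. Shares have exact 95% binomial (Clopper-Pearson) intervals (scipy 1.17.1), and a count of 0 was read against a floor of 3 counts. Both cover counting error only. Fold changes set Angpt1ΔNC against the mean of the controls. Libraries, not cells, were the replicates.

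Counts summed over TM1 to TM11 were tested with edgeR 4.0.16 in R 4.3.3 (quasi-likelihood, TMM, filterByExpr, Benjamini-Hochberg, threshold 0.05), with DESeq2 1.42.0 as an alternative. On simulated counts for this comparison, edgeR recovered 99.5% of 200 genes changed 4-fold, and 4.33% of its calls were false (13811 genes tested). Apart from the changed genes, the simulated libraries were all drawn from the mean control profile, with a fixed dispersion and no difference between pools. The simulation therefore gives no share of false calls for the real libraries, where pool and genotype cannot be told apart. The test called 1251 of 13942 genes, 482 higher and 769 lower in Angpt1ΔNC, and no p is given for the 4 members. A typed cell held UMIs of either Xist or the Y-linked genes Ddx3y, Eif2s3y, Kdm5d and Uty, and not of both. The named genes were the 4 members, up to 10 genes of a complement list, genes within 500000 bases, the 3 genes most like each member, and Angpt1, Xist and the Y-linked genes as checks. Some genes that passed these rules are not reported here.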

Additional observations from a re-analysis of the deposited data

Results flagged for a closer look

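C1ra is set out here because its Angpt1ΔNC level lay on opposite sides of the controls in different groups of labels. It lay above both controls in TM1 to TM11, with a fold of 2.19, and in clusters 13, 17 and 18, with a fold of 1.32, but below both controls in the mural clusters 19 to 21, with a fold of 0.872. The difference was not tested. The mural value rests on 46 UMIs, its counting interval of 0.638 to 1.16 includes no change, and of the mural clusters only cluster 20 was below both controls.

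The called cells that the authors did not keep were used in no main comparison, and C1ra was higher in those of Angpt1ΔNC as well. An alternative given below included those past the stated filters. It stood at 22.6 and 23.2 CPM in the controls and at 31.8 in Angpt1ΔNC. C1rb stood at 20.2, 34.9 and 0.143 in these cells and C1s2 at 23.4, 21.1 and 0.0476, while C1s1, at 51.8, 38.6 and 47.0, lay between the controls. The sums of both pairs were below both controls, at 42.7, 58.1 and 31.9 for C1ra and C1rb and at 75.2, 59.8 and 47.1 for C1s1 and C1s2.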

How the results depend on the processing

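The direction of the log2 fold of each of the 4 genes held under every alternative run, as did that of the shares. For C1ra (1.13 in TM1 to TM11) the alternatives moved the value by more than the spread between the controls once, to 0.91 in all kept cells. For C1rb (-7.82) the value was -6.73 with cells thinned to 2000 UMIs, where it is a bound at 0 UMIs, -8.28 with equal weight for each TM label and -6.80 in male-typed cells. For C1s2 (-7.31) it was -7.09 as a mean over cells, -7.83 thinned, -7.86 with equal weight, -8.30 in male-typed cells and -7.91 in all kept cells, and the thinned and male-typed values rest on 1 UMI each (counting intervals -13.14 to -5.36 and -13.61 to -5.82). C1s1 (0.82) moved by less than that spread under each alternative. Leaving out a control gave 1.02 to 1.26 for C1ra, -8.00 to -7.61 for C1rb, 0.57 to 1.12 for C1s1 and -7.46 to -7.15 for C1s2. The control mean of the C1s2 share exceeded the Angpt1ΔNC share by 33.9 percentage points, and by 38.3 with at most 1 UMI per cell and gene. edgeR called 1251 genes in TM1 to TM11, 2441 with no filter on low counts and 636 with DESeq2. The cause was not tested. Over all kept cells edgeR called 1 gene of 17352, with 3386 at an unadjusted p under 0.05. Keeping every called cell past the stated filters, doublets included, an alternative chosen after seeing the data, left the log2 folds at 0.91, -7.86, 0.66 and -8.16 for C1ra, C1rb, C1s1 and C1s2 over all cells. With 1 Angpt1ΔNC library, a difference between pools cannot be told apart from one between genotypes. No paired analysis was possible, because there is only 1 Angpt1ΔNC library and the labels give no pairing of the libraries.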
